A study of Mus musculus with 8 samples.

Results

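The regions described here are the long CpG island regions of a mouse CpG island array, taken as runs of at least 12 probes on chromosomes 1 to 19 in which neighbouring probe starts lay no more than 500 bp apart. By this rule 856 of 15109 autosomal regions (5.67%) were long, and they held 13018 of the 85850 probes placed in regions (15.2%). On each array the 2 outermost probes of either end, called the edge, were compared with the middle 1/3 of the probes, called the centre. The rule used probe positions only and no measured value. The long regions had 12 to 40 probes (median 14) and spanned 1044 to 5401 bp (median 1820 bp). Of the 856, 793 carried a gene name in the array design, and 354 contained a start-to-start gap above 300 bp.

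The study measured DNA methylation by immunoprecipitation. Genomic DNA was sonicated to fragments far longer than a probe, denatured and precipitated with a monoclonal antibody against 5-methylcytidine, and bound DNA (Cy5) was hybridised with input DNA (Cy3) of the same sample on every array. There were 8 arrays, 1 for each group. The first 4 groups were mouse embryonic stem (ES) cells: wild type, aid-/-, mbd4-/- and a Gadd45a knockdown. The others were liver and spleen from C57BL6/J mice aged 6 months, each in aid-/- and mbd4-/-, from tissue DNA supplied by other laboratories. AID is a cytidine deaminase, MBD4 a thymine glycosylase that binds methylated DNA, and Gadd45a a stress-induced protein linked to DNA demethylation. Wild-type liver and spleen were not analysed here. No group had a second array, so arrays of different genotype or tissue stand in for replicates wherever a test is given, and its p-value measures the spread between these particular arrays. A DNA array carries no expression markers, so the labelled tissues and the knockdown could not be checked on it.

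CpG islands are stretches of GC-rich DNA, often at gene starts, where CpG sites are dense and mostly unmethylated in normal cells. In the flanking shores CpG density falls and methylation commonly rises, and tissue differences in methylation are often seen there. Some islands are methylated throughout, among them islands inside genes and the parental-allele-specific control regions of imprinted genes. Because a precipitated fragment is longer than a probe, a probe also reports methylated CpGs in its neighbourhood.

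The probes themselves show how edge and centre differ in letters. The following are the outermost probe of one end and the middle probe of 3 regions with edges above their centre (Six4, Npr1 and Tcf7l1, written Tcf3 in the array design) and of 2 with edges below it (Fut8 and Spata5). They are given as the array file prints them, with every CpG in capitals.
Six4 outermost: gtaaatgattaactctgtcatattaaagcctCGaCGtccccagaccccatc
Six4 middle: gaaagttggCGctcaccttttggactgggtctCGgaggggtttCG
Npr1 outermost: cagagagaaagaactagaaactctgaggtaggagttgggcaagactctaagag
Npr1 middle: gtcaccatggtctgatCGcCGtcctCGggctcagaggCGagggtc
Tcf7l1 outermost: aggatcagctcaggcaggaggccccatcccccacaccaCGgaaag
Tcf7l1 middle: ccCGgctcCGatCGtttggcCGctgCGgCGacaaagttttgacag
Fut8 outermost: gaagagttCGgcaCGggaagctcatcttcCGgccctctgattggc
Fut8 middle: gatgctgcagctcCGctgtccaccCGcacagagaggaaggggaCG
Spata5 outermost: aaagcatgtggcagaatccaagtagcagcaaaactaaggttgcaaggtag
Spata5 middle: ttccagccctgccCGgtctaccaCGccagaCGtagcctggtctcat

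The Npr1 outermost probe (chr3:90268570-90268622 in mm9, the build of the array files) contains no CpG and 45.3% GC, and the middle probe (chr3:90269458-90269502) contains 4 CpGs and 66.7% GC. Its log2 ratio of bound over input, centred on the array median, was nevertheless 2.59 ± 0.58 (SD, 8 arrays) at the outermost probe and 0.02 ± 0.93 at the middle one. In Tcf7l1 the outermost probe (chr6:72738096-72738140, 1 CpG) read 1.03 ± 0.72 and the middle probe (chr6:72739032-72739076, 6 CpGs) −0.93 ± 0.86. Six4 had 2 CpGs in the outermost probe (chr12:74212709-74212759) and 3 in the middle one (chr12:74213314-74213358), with 0.73 ± 0.25 and −1.54 ± 0.52. The opposite order was seen in Spata5, where the outermost probe (chr3:37317985-37318034) also lacks CpGs but read −1.61 ± 0.82, against 0.55 ± 0.51 at a middle probe with 3 CpGs (chr3:37318580-37318625). Fut8 had 3 CpGs in both probes (chr12:78338946-78338990 and chr12:78339604-78339648), with −1.28 ± 0.58 outside and 0.78 ± 0.42 in the middle. The separation was weaker in Tmem63b, another region with a lower edge, whose probes are not printed here. Its outermost probe (chr17:45822206-45822252) read −0.48 ± 1.01, from −2.53 to 0.73, and its middle probe (chr17:45822858-45822902) 0.16 ± 0.25. A probe without a CpG was therefore high in one region and low in another.

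Over all long regions, probe composition changed at the very end. The outermost probe had a mean GC content of 51.8% and 1.61 CpGs, whereas the next probe inward had 56.9% and 2.84 CpGs, and probes 3 to 6 stayed between 57.2% and 57.9% GC and between 2.79 and 2.84 CpGs. Averaged by region, the edge had 54.5% GC and 2.27 CpGs per probe and the centre 57.3% and 2.78. The edge had lower GC than the centre in 586 of the 856 regions and fewer CpGs in 534. Long regions made up between 3.86% (chromosome 1) and 8.42% (chromosome 12) of the regions of a chromosome.

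On most arrays the edges of long regions were slightly above their centres, but the spread between regions was far wider than this shift. In ES cells the median edge minus centre was 0.30 in aid-/-, 0.07 in wild type, 0.23 in mbd4-/- and −0.15 in the Gadd45a knockdown. In the tissues it was 0.16 in liver aid-/-, 0.02 in liver mbd4-/-, 0.14 in spleen aid-/- and 0.05 in spleen mbd4-/-. The Gadd45a knockdown was the only one of the 8 arrays with a median below 0. The mean of the array medians was 0.11 ± 0.20 over the 4 ES arrays and 0.09 ± 0.07 over the 4 liver and spleen arrays (SD between arrays of different genotype), and the ranges overlapped. The SD between regions on one array ran from 0.41 in liver aid-/- to 1.14 in the Gadd45a knockdown, with a mean of 0.94 ± 0.16 on the ES arrays and 0.55 ± 0.12 on the tissue arrays. All 4 ES arrays (0.76 to 1.14) had a larger SD than all 4 tissue arrays (0.41 to 0.68).

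**Figure D1:**
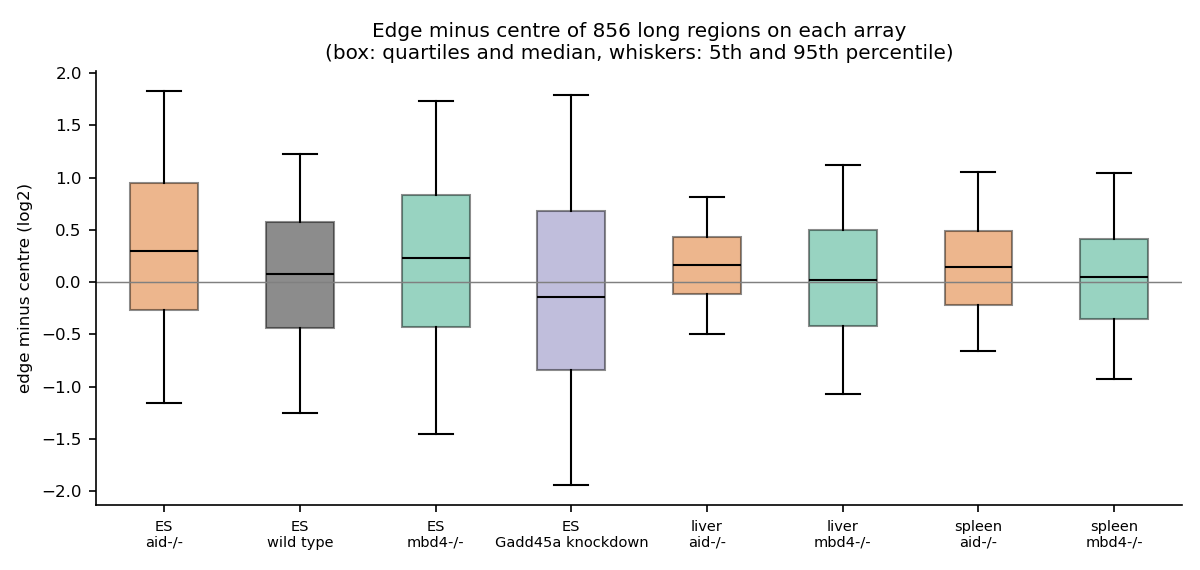
Edge minus centre (log2) of the 856 long regions on each of the 8 arrays, as boxes from the lower to the upper quartile with the median line and whiskers at the 5th and 95th percentiles. Medians lie between −0.15 (Gadd45a knockdown) and 0.30 (ES aid-/-), and the boxes are narrowest for the aid-/- liver.

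At the outermost probe the 3 aid-/- arrays lay above the other 5. The median there was 0.13 in ES aid-/-, 0.06 in liver aid-/- and 0.08 in spleen aid-/-. On the other 5 arrays it was −0.15 in ES wild type, −0.24 in ES mbd4-/-, −0.36 in the knockdown, −0.20 in liver mbd4-/- and −0.16 in spleen mbd4-/-. From the outermost to the second probe the median therefore fell on every aid-/- array and rose on each of the other 5. At the second probe the 8 arrays lay between −0.14 and −0.07, and at the sixth between −0.29 and −0.09. With the outermost probe alone as the edge, edge minus centre was 0.55 in ES aid-/-, 0.20 in liver aid-/- and 0.19 in spleen aid-/-, against −0.22 to 0.21 on the others, with ES mbd4-/- at 0.21 above both aid-/- tissues. Array-wide GC trends moved with this. AT-rich probes (GC under 40%) read 0.05 in the median in ES aid-/-, −0.24 in liver aid-/- and −0.33 in spleen aid-/-, but −1.49 to −0.80 elsewhere. The aid-/- arrays and the ES wild-type array were scanned on one day and the mbd4-/- and knockdown arrays on others. After subtracting each array's median per 5% bin of GC, the median edge minus centre was positive on all 8 arrays, from 0.12 in spleen mbd4-/- to 0.39 in ES mbd4-/-, with 0.28 in ES aid-/-, 0.20 in ES wild type and 0.17 in the knockdown.

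**Figure D2:**
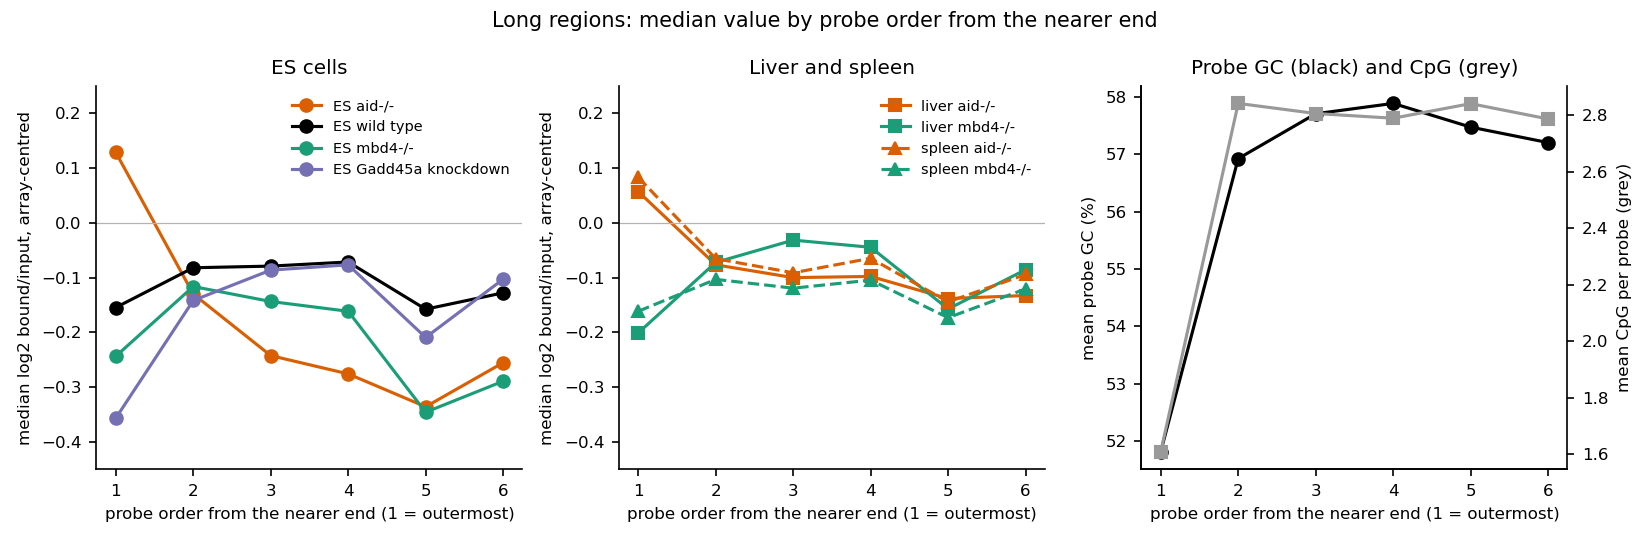
Median log2 bound over input by probe order from the nearer end of the long regions, in ES cells (left) and in liver and spleen (middle), with the mean GC content and CpG number of the same probe positions (right, 2 axes that do not start at 0). The 3 aid-/- lines start highest, at 0.06 to 0.13, and the others start between −0.36 and −0.15, at the position where GC and CpG number drop to 51.8% and 1.61.

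Across the 856 regions the correlation of edge minus centre with the difference in GC was 0.38 in ES wild type, 0.36 in ES mbd4-/-, 0.45 in the knockdown, 0.42 in liver mbd4-/- and 0.30 in spleen mbd4-/-. It was −0.11 in ES aid-/-, −0.03 in liver aid-/- and 0.03 in spleen aid-/-. These are descriptions over regions that share an array and its probes. Between arrays, edge minus centre of the same regions correlated at 0.26 (knockdown and liver aid-/-) to 0.80 (ES wild type and liver mbd4-/-), so the ordering of regions was partly shared by every pair.

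Whether a given region had an edge different from its centre on the mean of the 8 arrays was tested with limma over all 6392 autosomal regions of at least 6 probes. At a Benjamini-Hochberg adjusted p under 0.05, the edge was higher in 243 long regions (28.4%), where the same call was made in 21.2% of all regions tested, and lower in 153 (17.9%), against 22.6% of all tested. Edge-higher calls outnumbered edge-lower calls among long regions here and under all 23 alternatives that were run. Over all regions tested they were fewer here and under 16 of the alternatives, and more numerous under the other 7, so this contrast depends on the processing. It was absent with the bound signal floored (20.3% higher and 17.8% lower of all tested) and in the authors' deposited table (23% and 19.5%), for example. The difference in shares was not itself tested. The median over long regions was 0.11 and that over all tested regions −0.02. The edge was above the centre on all 8 arrays in 180 long regions (21.0%), as in 15.6% of all tested, and below it on all 8 in 82 (9.58%), as in 14.6%. The 243 had a median edge minus centre of 0.75, and in 60 it was at least 1 log2. The 153 had a median of −0.65, and 26 reached −1 log2. In both sets most regions had both ends on the same side of the centre, 199 of 243 and 119 of 153. In 10 of the 856 the used edge probes came from one end alone.

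These sets differed in level as well as in composition. Regions with higher edges had a median centre of −0.58 and a median edge of 0.24, and regions with lower edges a median centre of 0.04 and a median edge of −0.69. The median difference in GC, edge minus centre, was −0.92 percentage points in the first set and −5.56 in the second. After the GC correction there were 307 edge-higher regions (35.9%, against 29.5% of all tested) and 120 edge-lower ones (14%, against 17.6%). Normexp background correction gave 260 (30.4%, against 24.5%) and 100 (11.7%, against 13.8%). Leaving out any 1 of the 8 arrays gave 210 to 266 higher and 119 to 152 lower.

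**Figure D3:**
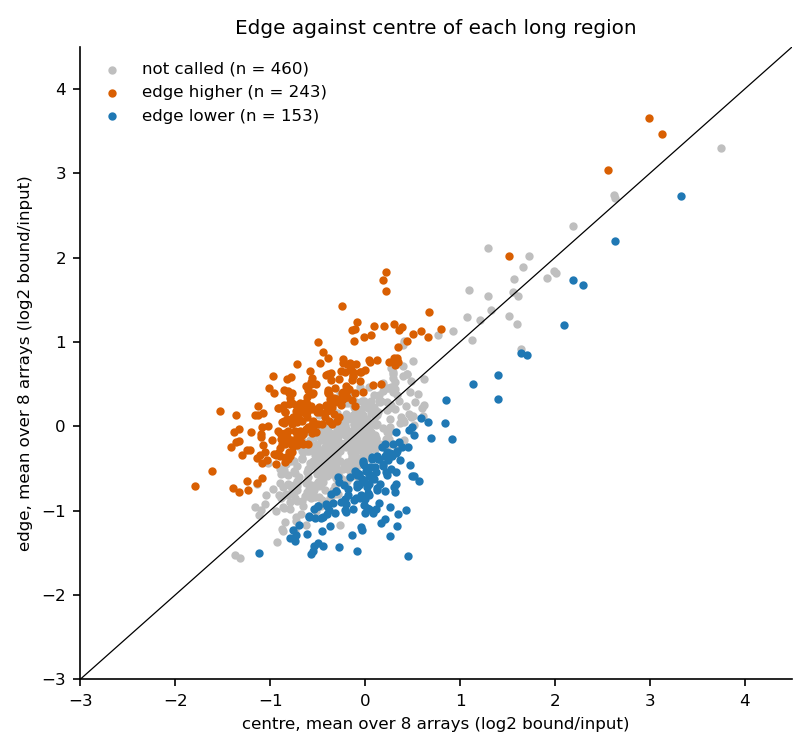
Mean edge value against mean centre value over 8 arrays (log2 bound over input) for each long region, with the line of equality. The 243 regions with higher edges and the 153 with lower edges lie on either side of 460 uncalled ones, and the few regions with both values above 2 lie near the line.

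Among gene-named regions with one sign on all 8 arrays, the 8 with the highest edges relative to the centre were Six4, Npr1, Tcf7l1, Scrt1, Lrrc56, Arhgef26 (4631416L12Rik in the design), Foxa2 and Espn. They include transcription factors of development: Six4 is a homeobox factor, Tcf7l1 an HMG-box factor of the Wnt pathway, Scrt1 a zinc finger repressor of neurons and Foxa2 a forkhead factor of endoderm and liver. Npr1 is a natriuretic peptide receptor, and Espn bundles actin in hair cells. Because these 8, and the 8 lowest below, were picked by this difference, the separation of edge from centre in them is a description.

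At Six4 (chr12:74212709-74214145, 13 probes) the edge read 0.09 in ES aid-/-, 0.35 in ES wild type, −0.15 in ES mbd4-/-, 0.40 in the knockdown, 0.18 in liver aid-/-, 0.28 in liver mbd4-/-, 0.11 in spleen aid-/- and 0.16 in spleen mbd4-/-. Its centre read −1.83, −2.29, −1.71, −1.75, −0.60, −1.63, −1.22 and −1.15 in the same order. The edges thus sat near the array median and the centre well below it, without overlap, and the mean difference was 1.70 ± 0.19 (SE; limma adjusted p = 0.000144). Both ends were above the centre, by 2.26 and 1.43.

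Npr1 (chr3:90268570-90270212, 15 probes) had a high edge instead of a low centre. Its edge read 2.40 in ES aid-/-, 1.73 in ES wild type, 1.67 in ES mbd4-/-, 1.56 in the knockdown, 1.31 in liver aid-/-, 2.56 in liver mbd4-/-, 1.30 in spleen aid-/- and 2.10 in spleen mbd4-/-. The centre read −0.26, 0.08, −0.16, 1.00, 0.20, 0.52, 0.13 and 0.30 in that order, highest in the knockdown. The mean difference was 1.60 ± 0.20 (limma adjusted p = 0.000213). The excess lay at one end, 2.23 above the centre, while the other end was 0.36 above it.

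Foxa2 (chr2:147869562-147872747, 24 probes) had edges of 0.83 in ES aid-/-, 0.74 in ES wild type, 1.11 in ES mbd4-/-, 1.14 in the knockdown, 0.12 in liver aid-/-, 0.64 in liver mbd4-/-, 0.73 in spleen aid-/- and 0.57 in spleen mbd4-/-. The centre lay between −1.50 (ES mbd4-/-) and −0.30 (spleen aid-/-) on 7 arrays and at the array median in liver aid-/-. Edge minus centre was 1.45 ± 0.22 (limma adjusted p = 0.000442), smallest in liver aid-/- at 0.12 and largest in ES mbd4-/- at 2.61. Here the edge had more GC than the centre, 62.8% against 52.2%.

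Of the other 5, edge minus centre was 1.57 ± 0.20 at Tcf7l1 (chr6:72738096-72739650), 1.50 ± 0.21 at Scrt1 (chr15:76352647-76354391), 1.50 ± 0.28 at Lrrc56 (chr7:148379659-148381115), 1.47 ± 0.19 at Arhgef26 (chr3:62142604-62143982) and 1.39 ± 0.13 at Espn (chr4:151504710-151506467). Espn, like Npr1, had a high edge, 1.61 as the mean of 8 arrays, and the smallest spread of the 8, an SD of 0.29 between arrays. Its excess, over 3 used edge probes, lay mostly at one end, 1.92 above the centre against 0.33 at the other. That other end was below the centre in ES wild type and ES mbd4-/-. The ends of Lrrc56 were 2.19 and 0.81 above its centre, the second falling below it in ES aid-/- and liver aid-/-. All 8 regions kept their call under each alternative processing that could be applied to them. On the ES aid-/- array only 1 of 4 centre probes was well above background at Tcf7l1 and at Arhgef26, and 2 of 5 at Six4.

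The 8 lowest were Zbtb7c, Fut8, Spata5, Tmem63b, Zhx1, Fnbp1l, Actn1 and Pkm (Pkm2 in the design). Several belong to broadly used cell functions: Fut8 adds core fucose to glycoproteins, Actn1 crosslinks actin, Fnbp1l bends membranes and Pkm is pyruvate kinase. Zbtb7c and Zhx1 are zinc finger proteins, and Zhx1 also has homeobox domains.

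Fut8 (chr12:78338946-78340674, 13 probes) had edges of −1.01 in ES aid-/-, −1.46 in ES wild type, −0.83 in ES mbd4-/-, −1.44 in the knockdown, −0.13 in liver aid-/-, −0.96 in liver mbd4-/-, −1.07 in spleen aid-/- and −1.03 in spleen mbd4-/-. The centre read 0.75, 0.38, 0.44, 0.86, 0.13, 0.27, 0.22 and 0.40. No edge reached the lowest centre, and the mean difference was −1.42 ± 0.19 (limma adjusted p = 0.000243). The smallest difference, −0.26, was on the liver aid-/- array.

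Spata5 (chr3:37317985-37319853, 13 probes), which encodes an AAA ATPase, had edges of −0.60, −1.02, −1.39 and −1.53 and centres of 0.33, 0.19, 0.77 and 1.71 in aid-/-, wild-type, mbd4-/- and knockdown ES cells. In liver aid-/-, liver mbd4-/-, spleen aid-/- and spleen mbd4-/- the edges were −0.59, −0.80, −1.24 and −1.18 and the centres −0.06, −0.04, −0.34 and 0.21. The difference was −1.39 ± 0.26 (limma adjusted p = 0.00138), similar at both ends (−1.44 and −1.34).

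Zbtb7c (chr18:75979097-75981101, 15 probes) was at −0.03 in ES aid-/-, and on the knockdown array none of its edge probes was well above background, so that there the centre was at least 6.10-fold higher than the edge and the measured −4.38 is only nominal. The mean of −1.55 ± 0.37 (limma adjusted p = 0.00529) and its place as the lowest of the 8 use that value. Without the knockdown the mean was −1.15 ± 0.24 (limma adjusted p = 0.00299). The call was lost with the bound signal floored, at −0.68, and in the authors' deposited table, at −0.25. Its sign turned to 0.20 with normexp background correction, where it was not called. The remaining 5 were Tmem63b (−1.31 ± 0.27), Zhx1 (−1.31 ± 0.22), Fnbp1l (−1.22 ± 0.24), Actn1 (−1.22 ± 0.23) and Pkm (−1.21 ± 0.24). The edges of Zbtb7c and Fnbp1l had 44.8% and 43.4% GC and their centres 67.1% and 62.2%, the widest GC gaps among the 16 regions. Fnbp1l was no longer called without the probe filter, at −0.80, or with normexp background correction, at −0.21. Pkm was no longer called with normexp background correction, at −0.05, or in the authors' deposited values, at −0.43.

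**Figure D4:**
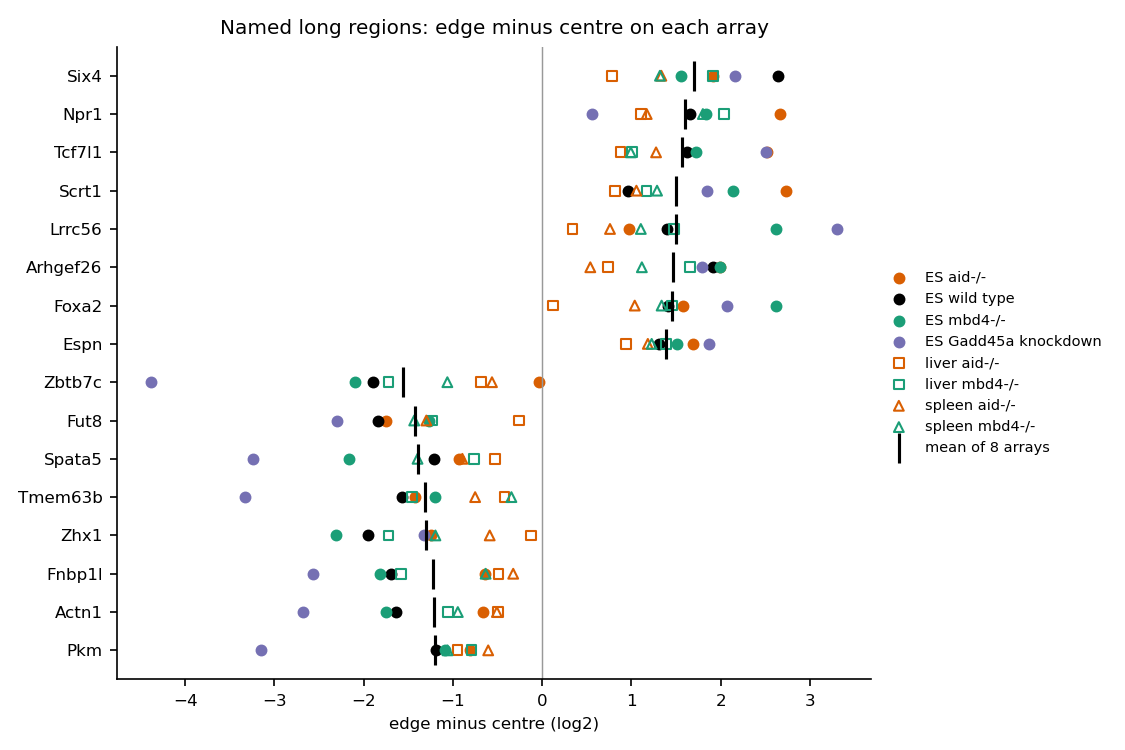
Edge minus centre (log2) on each array for the 8 gene-named long regions with the highest and the 8 with the lowest mean among those with one sign on all 8 arrays. Points are arrays, black bars the mean of 8 arrays, and the knockdown points of Zbtb7c, Spata5, Tmem63b and Pkm lie furthest left, at −4.38 to −3.15, the first of these with no edge probe well above background.

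**Figure D5:**
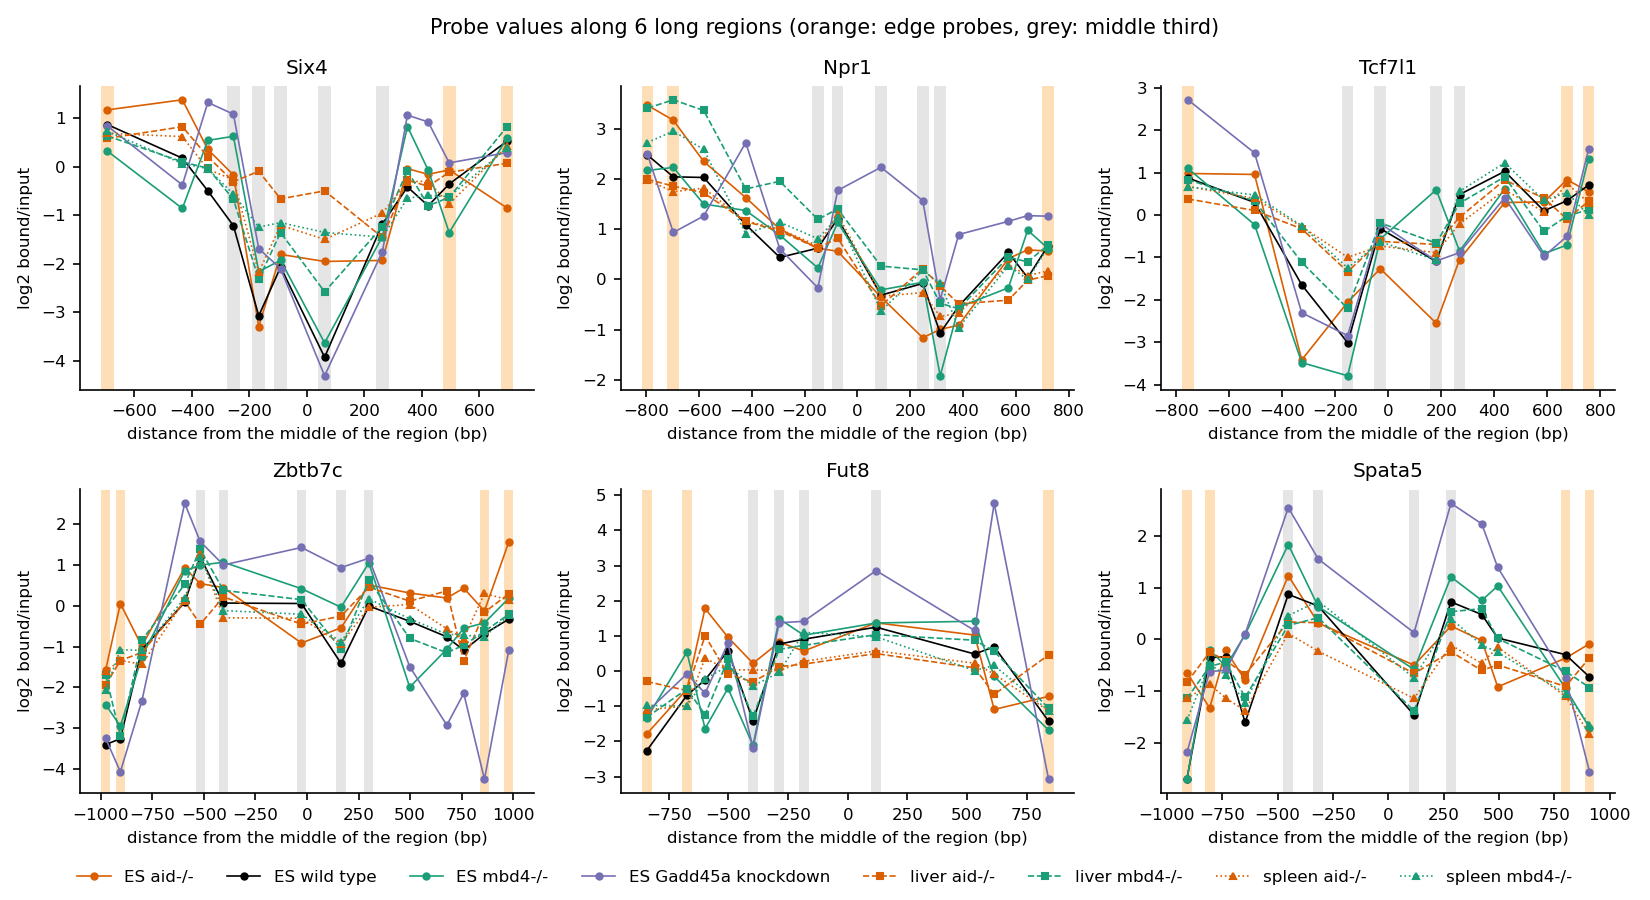
Log2 bound over input of each used probe against its distance from the middle of the region (bp) for the first 3 regions of either direction, 1 line per array. In Six4 and Tcf7l1 the lines dip in the middle, in Npr1 they fall from one end, and in Zbtb7c, Fut8 and Spata5 most lines are low at one or both ends.

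Most long regions had a high value in neither part. On each array a plateau was set as the 98th percentile of region means, and a value of at least 50% of it on the log2 scale was called high. By this mark 744 of the 856 regions had neither a high edge nor a high centre on any array. The counts by this mark, here and below, were made over long regions only. Without the share over all tested regions they cannot set long regions apart from shorter ones. Between 4 (knockdown) and 25 (liver aid-/-) regions were high at both on a given array, and 4 to 29 at the edge alone. The Gadd45a knockdown had 29 regions high at the edge alone and 29 at the centre alone, where each of the other 7 arrays had at most 8 and 12. The mark itself differed, at 1.36 on the knockdown and 1.13 (liver aid-/-) to 2.22 (ES aid-/-) on the others. The knockdown also had the widest SD of edge minus centre between regions, 1.14. Whether mark and spread account for these counts was not tested.

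A total of 9 regions were high throughout on at least 6 arrays, and 2 of them on all 8. These and the regions high at one part alone were picked after their values were seen. The 2 were Spen (chr4:141033301-141035110), a transcriptional repressor known from X inactivation, and Elfn2 (chr15:78502303-78503815), a postsynaptic adhesion protein. The edge of Spen read 4.99 in ES aid-/-, 3.44 in ES wild type, 4.62 in ES mbd4-/-, 2.14 in the knockdown, 2.54 in liver aid-/-, 4.39 in liver mbd4-/-, 2.24 in spleen aid-/- and 3.39 in spleen mbd4-/-, and its centre 4.74, 3.05, 4.32, 1.54, 2.34, 3.92, 2.04 and 3.10. Both parts were high everywhere, and the edge exceeded the centre on every array, by 0.34 ± 0.12 on average (limma adjusted p = 0.0324). A second long region of Spen (chr4:141092129-141094850) was low, with a mean difference of −0.63 ± 0.19. The other 7 were Scaf1, Plec (Plec1 in the design), Mtap1s, Bcl11b, Gnas, Lingo1 and an unnamed region of chromosome 10 (chr10:80296983-80298766). Edge minus centre among them ran from −0.60 at Mtap1s to 0.47 at Bcl11b.

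There were 3 regions high at the edge alone on at least 4 arrays: Npr1 on 7, Tsc22d1 on 5 and Tigd5 on 5. At Tsc22d1 (chr14:76813745-76816344), a leucine zipper factor induced by TGF-beta, the edge read 1.56, 1.25, 2.44 and −0.81 in aid-/-, wild-type, mbd4-/- and knockdown ES cells and 1.20, 2.26, 1.34 and 2.13 in liver aid-/-, liver mbd4-/-, spleen aid-/- and spleen mbd4-/-. Its centre stayed between −0.46 and 0.03 on all 8. The edge was above its centre on each array but the knockdown, and by the mark above it was high on ES mbd4-/- and the 4 tissue arrays. At Tigd5 (chr15:75739199-75741277) the knockdown edge was −0.92 and the other 7 lay between 0.51 and 3.33. There were 2 regions high at the centre alone on at least 4 arrays, Jph4 (chr14:55732139-55734332), a junctophilin, on 5 and Fzd5 (chr1:64781318-64784655), a Wnt receptor, on 4. The Fzd5 centre read 1.66, 0.26, 1.66 and −0.15 on the ES arrays of aid-/-, wild type, mbd4-/- and knockdown and 1.21, 2.84, 1.19 and 2.49 on liver aid-/-, liver mbd4-/-, spleen aid-/- and spleen mbd4-/-, and each edge was below its centre (−1.07 ± 0.19, limma adjusted p = 0.00101).

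The difference between ES cells and tissues was tested for each region on 4 ES arrays against 4 liver and spleen arrays. No long region passed an adjusted p under 0.05 in either direction (0% of all tested in both), while 71 had an unadjusted limma p under 0.05 with the ES value higher (8.29%, against 5.9% of all tested) and 61 with it lower (7.13%, against 6.16%). On the 6 aid-/- and mbd4-/- arrays alone, with genotype as a block, 101 long regions were called higher in ES cells (11.8%, against 8.93% of all tested) and 46 lower (5.37%, against 4.69%). The same 6 arrays without the block gave 25 (2.92%, against 1.67%) and 12 (1.4%, against 0.673%). Since genotype and scan day coincide in the tissues, the block also removes scan day there. On the first scan day alone, with 2 arrays on either side, there was again no call.

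The 5 largest ES excesses, named without a threshold, were 2700081O15Rik, Fbxl8, Sox9, Mn1 and Exoc3l, and in all 5 the centre on each tissue array was above the centre on every ES array. These 5 were picked by the size of the ES against tissue difference, so the separation of their centres is a description and no support for a difference. At 2700081O15Rik (chr19:7495706-7498273, 19 probes) the edge read 2.75 in ES aid-/-, 1.99 in ES wild type, 3.11 in ES mbd4-/-, 0.03 in the knockdown, 1.64 in liver aid-/-, 2.74 in liver mbd4-/-, 1.75 in spleen aid-/- and 2.88 in spleen mbd4-/-. Its centre was −0.09, 0.42, −0.06 and 0.15 on the ES arrays and 1.37, 2.45, 2.07 and 4.01 on the tissue arrays. The centres of ES cells and tissues did not overlap, whereas the edges did, and edge minus centre was 2.09 ± 0.62 higher in ES cells (limma adjusted p = 0.37). In the 6-array fit with genotype as a block the difference was 3.22 (limma adjusted p = 0.00422). That fit reuses arrays by which these regions were picked, so its p-values here and below are no separate support. It leaves out ES wild type and the knockdown, where edge minus centre was 1.57 and −0.11.

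Mn1 (chr5:111845465-111849590, 33 probes), a transcriptional coactivator, behaved alike in its centre: −0.16, 0.10, 0.06 and −0.72 on the ES arrays of aid-/-, wild type, mbd4-/- and knockdown, and 1.13, 2.68, 1.00 and 1.33 on liver aid-/-, liver mbd4-/-, spleen aid-/- and spleen mbd4-/-. Its edge was 1.14 to 1.68 on the first 3 ES arrays, 0.10 in the knockdown and 0.88 to 3.01 in the tissues. Edge minus centre was 1.33 ± 0.48 (SD) on the ES arrays and 0.02 ± 0.21 on the tissue arrays (limma adjusted p = 0.37, and 0.00519 with the genotype block). The tissue value averages ends that disagreed, over 3 used edge probes. On the tissue arrays one end minus the centre was −3.26 to −2.12, and the other end minus the centre 0.88 to 2.12. At Sox9 (chr11:112645061-112646839, 13 probes), a factor of cartilage and testis, the ES centres were −1.43 to −0.31 and the tissue centres 0.38 to 3.66, with the highest in liver mbd4-/-. Another long region of Sox9 (chr11:112642617-112644522, 17 probes) had a lower edge on the mean of 8 arrays (−0.63 ± 0.14, limma adjusted p = 0.00327). Fbxl8 (chr8:107792093-107793957) and Exoc3l (chr8:107813208-107814549) are neighbours on chromosome 8, and their edge minus centre was 1.46 ± 0.41 and 1.67 ± 0.31 on the ES arrays against −0.26 ± 0.56 and 0.36 ± 0.28 on the tissue arrays. In the 6-array fit with the genotype block the limma adjusted p was 0.0189 at Fbxl8 and 0.00961 at Exoc3l. At Sox9 it was 0.0683, not called.

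The 5 largest tissue excesses were Ajm1 (Gm996 in the design), Ctbp2, Patz1, Chst2 and Comtd1. These were also picked by the size of the difference, without a threshold. Their values, those of the 6-array fit included, are a description and no support for a difference. Ajm1 (chr2:25432477-25435492, 25 probes) encodes an apical junction protein. Its centre read 3.88 in ES aid-/-, 3.92 in ES wild type, 3.98 in ES mbd4-/-, −1.20 in the knockdown, 0.35 in liver aid-/-, 0.16 in liver mbd4-/-, 0.88 in spleen aid-/- and 1.22 in spleen mbd4-/-, and its edge 1.50, 1.36, 2.04, −1.21, 0.69, 0.77, 0.80 and 1.40. On 3 ES arrays the centre was thus more than 2 log2 units above that on any tissue array, and on the knockdown array it was not. Edge minus centre was −1.72 ± 1.17 on the ES arrays and 0.26 ± 0.29 on the tissue arrays (limma adjusted p = 0.37, and 0.00322 in the 6-array fit with genotype as a block). Here too the tissue value averages ends that disagreed, at 0.90 to 1.66 and at −1.21 to −0.43 relative to the centre. At Ctbp2, Patz1 and Comtd1 the ES edges were the low part. Patz1 (chr11:3188684-3191171) had edges of −3.37 to −1.88 in ES cells and −1.16 to 0.02 in the tissues. None of its edge probes was well above background on the aid-/- and mbd4-/- ES arrays, where the centre was at least 1.58-fold and 4.85-fold higher than the edge. The same held for the edge of Ctbp2 in ES aid-/-, for which no fold can be given.

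The comparison of aid-/- with mbd4-/- used 6 arrays with tissue as a block. In aid-/- 2 long regions were called higher, where 0.141% of all regions tested were, and none lower (0.0313% of all tested). They were Rab6a (Rab6 in the design, chr7:107755629-107757135), a Golgi GTPase, and Bhlhe22 (Bhlhb5, chr3:17954295-17955973), a neuronal bHLH factor. Edge minus centre at Rab6a was 1.46 in ES, 0.02 in liver and −0.16 in spleen of aid-/-, and −1.75, −2.23 and −1.14 in mbd4-/-, a difference of 2.14 ± 0.36 (limma adjusted p = 0.0452). At Bhlhe22 it was 1.32, 0.68 and 0.50 in aid-/- and −1.22, −0.78 and −0.74 in mbd4-/- (1.75 ± 0.30, limma adjusted p = 0.0452). The edge of Bhlhe22 rested on 2 probes of one end, and in ES aid-/- neither was well above background, so that 1.32 is not a measured difference. Without either ES array the difference was 1.35 ± 0.29 and no longer called (limma adjusted p = 0.0517). Without either liver array both calls were lost (limma adjusted p = 0.0742). At Rab6a only 1 of 3 edge and 1 of 4 centre probes were well above background in ES aid-/-. The 3 values of either genotype did not overlap at either gene. Both regions were picked by their call in this comparison, so the separation is a description and no support for a difference. Wild-type ES cells read −1.97 and −0.51, on the mbd4-/- side. The edges of these regions had 51.2% and 45.7% GC and the centres 65.0% and 64.9%, and after the GC correction the differences were 1.38 and 0.82 (limma adjusted p = 0.307 and 0.457). Other settings also ended these calls: each was lost under 9 alternatives, of 12 at Rab6a and 11 at Bhlhe22, with normexp background, CpG number correction and the deposited values among them. All aid-/- arrays were scanned on one day and all mbd4-/- arrays on others, so genotype and scan day cannot be told apart. Leaving out either spleen array, which leaves its partner uninformative in the blocked fit, gave 40 higher (4.67%, against 6.62% of all tested) and 15 lower (1.75%, against 1.61%), in a fit that gave the named regions one common SE of 0.39, and leaving out either liver array gave none.

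Against wild-type ES cells, without a replicate or test, edge minus centre was at least 1 log2 higher in 160 long regions of aid-/- (18.7%, against 19.2% of all tested) and lower in 42 (4.91%, against 5.18%). In mbd4-/- 95 were higher (11.1%, against 10.3%) and 44 lower (5.14%, against 7.09%). In the knockdown 79 were higher (9.23%, against 12.1%) and 143 lower (16.7%, against 15.4%). These shares were near those of all tested regions. The median edge of aid-/- was 0.23 above wild type and its median centre 0.08 below, as medians of the paired differences by region. In the knockdown the centre was 0.19 higher and the edge 0.05 higher. With normexp background correction the 6 counts fell to between 1 and 39.

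By a size rule on single arrays, an edge at least 1 log2 above the centre and at least 75% of the edge probes above the median centre probe, 182 long regions had a high edge in ES aid-/- (21.3%, against 16.5% of all tested), 78 in ES wild type (9.11%, against 6.24%), 155 in ES mbd4-/- (18.1%, against 11.8%) and 125 in the knockdown (14.6%, against 14%). The numbers in tissues were 21 in liver aid-/- (2.45%, against 1.33%), 60 in liver mbd4-/- (7.01%, against 4.29%), 54 in spleen aid-/- (6.31%, against 4.16%) and 42 in spleen mbd4-/- (4.91%, against 2.86%). In the other direction long regions were below the share of all tested on each array: 55 in ES aid-/- (6.43%, against 7.2%), 64 in ES wild type (7.48%, against 10.8%), 82 in ES mbd4-/- (9.58%, against 13.4%), 1 in liver aid-/- (0.117%, against 0.422%), 48 in liver mbd4-/- (5.61%, against 10%), 6 in spleen aid-/- (0.701%, against 2.83%) and 29 in spleen mbd4-/- (3.39%, against 5.73%). The knockdown had more low edges (145, 16.9%, against 21.4%) than high ones.

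Gene lists were read by their counts. The homeobox list is not complete and lacks Six4 and Zhx1, described above among the highest and the lowest regions. Of its 44 long regions outside the Hox clusters, 12 had higher edges on the mean of 8 arrays (27.3%, against 28.4% of all long regions) and 5 lower ones (11.4%, against 17.9%), with a median of 0.12 against 0.11 over all long regions. The 12 included Otx1 (1.30 ± 0.13), Isl2 (chr9:55388564-55390546, 0.98 ± 0.16), Hmx3 (0.97 ± 0.20) and Pou3f1 (0.93 ± 0.22). A second long region of Isl2 (chr9:55393223-55394588) was at −0.14 ± 0.15, not called. Otp (−0.88 ± 0.26), Irx2 (−0.56 ± 0.15), Hhex (−0.53 ± 0.14), Dlx4 (−0.53 ± 0.14) and Otx2 (−0.45 ± 0.17) were the 5 lower. Of 63 regions of other developmental regulators 17 were higher (27%) and 7 lower (11.1%), with a median of 0.15. Foxl1 (1.07 ± 0.20), Zic1 (1.04 ± 0.19), Foxf1a (1.01 ± 0.12), Prdm16 (1.01 ± 0.21) and Bmp7 (0.87 ± 0.18) were among the higher and Sp9 (−0.93 ± 0.20) and Maf (−0.85 ± 0.13) among the lower. None of 4 Hox regions was called. At the 3 of them with 13 probes edge minus centre was 0.29 ± 0.15 (Hoxb9), −0.12 ± 0.19 (Hoxa10) and −0.03 ± 0.20 (Hoxa11).

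There were 8 long regions of imprinted genes, which carry parent-specific methylation or expression. Of these, 3 had higher edges (37.5%, against 28.4% of all long regions) and 1 lower ones (12.5%, against 17.9%). A list this short does not set its share apart from that of all long regions. The growth inhibitors Phlda2 (chr7:150687585-150688863, 1.14 ± 0.14) and Cdkn1c (chr7:150644899-150647431, 0.51 ± 0.15) and the trophoblast factor Ascl2 (0.77 ± 0.14) were higher. Cdkn1c was high at both parts in the tissues: its centre read 1.48, 3.00, 1.54 and 3.07 in liver aid-/-, liver mbd4-/-, spleen aid-/- and spleen mbd4-/- and 1.31, 0.40, 0.96 and 0.33 in aid-/-, wild-type, mbd4-/- and knockdown ES cells. Gnas, which encodes a G protein subunit, had 2 long regions. In the larger (chr2:174124027-174126550, 21 probes) edge and centre moved together, at 4.61 and 4.11 in ES aid-/-, 0.37 and 0.03 in ES wild type, 4.55 and 4.21 in ES mbd4-/-, −1.54 and −0.14 in the knockdown, 1.93 and 1.76 in liver aid-/-, 3.90 and 3.27 in liver mbd4-/-, 1.73 and 1.51 in spleen aid-/- and 3.47 and 2.79 in spleen mbd4-/-. The 2 low arrays were ES wild type and the knockdown, and edge minus centre was 0.18 ± 0.21 (not called). Without the knockdown it was 0.41 ± 0.11 and called (limma adjusted p = 0.014). The second (chr2:174152721-174155044, 14 probes) had its edge below the centre on all 8 arrays, by −0.89 ± 0.18 (limma adjusted p = 0.00211). Igf2 was at 0.33 ± 0.15, not called.

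The next lists are also too short to set their shares apart from those of all long regions (28.4% higher and 17.9% lower). Among 6 blood and immune genes 3 were higher (50%) and 1 lower (16.7%). Lef1 (1.23 ± 0.18), a Wnt factor of lymphocytes, Bcl11a (0.55 ± 0.19) and Bcl11b (0.47 ± 0.17) were higher, and Gfi1 (−0.62 ± 0.22) was lower. Among 4 liver genes Foxa2 was higher (25%) and Hhex lower (25%), and both are also in a developmental list. Of 5 protocadherins, neuronal adhesion molecules, Pcdh7 was higher (20%, at 1.13 ± 0.17). Pcdh8 (−0.62 ± 0.16) and Pcdh17 (−0.63 ± 0.17) were lower (40%). Of 6 pluripotency genes only Myc was called (16.7% higher, at 0.42 ± 0.14), and Klf4 was at −0.34 ± 0.18 and Sox2 at 0.01 ± 0.20. The Myc call was lost with 4 of 11 alternatives, and also without any one of ES aid-/-, ES wild type, liver mbd4-/-, spleen aid-/- or spleen mbd4-/- (0.35 to 0.42). No call was made among 3 regions of the methylation machinery, with Gadd45g at 0.44 ± 0.19 and Gadd45b at 0.12 ± 0.12, or at the single housekeeping (Srsf1, Sfrs1 in the design, 0.23 ± 0.24) and fibroblast (Twist2, 0.34 ± 0.17) regions. Twist2 was called without the knockdown, at 0.43 ± 0.16 (limma adjusted p = 0.0492). No germline gene of the list had a long region.

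The regions with the most probes gave no single pattern. Bahcc1 (chr11:120094109-120099509, 40 probes) had edge and centre within 0.83 of each other on every array, with a mean difference of 0.05 ± 0.14. An unnamed region of chromosome 5 (chr5:33772994-33778243, 39 probes) had higher edges on all 8 arrays, from 0.61 in liver mbd4-/- to 1.74 in ES mbd4-/- (1.10 ± 0.15, limma adjusted p = 0.000261). Zfp503 (chr14:22804113-22808996, 36 probes), a zinc finger repressor, had values of 0.41, 0.93, 1.33 and 1.76 in aid-/-, wild-type, mbd4-/- and knockdown ES cells and of 1.21, 1.95, 1.29 and 2.19 in liver aid-/-, liver mbd4-/-, spleen aid-/- and spleen mbd4-/- (1.39 ± 0.19, adjusted p = 0.000244). Irx5 (chr8:94879507-94884802, 36 probes), a homeobox factor, was called at 0.60 ± 0.14 (limma adjusted p = 0.00433). Mn1 (33 probes), described above, was at 0.68 ± 0.23 (limma adjusted p = 0.0319), a call lost without any one of the 4 ES arrays. Anp32a (chr9:62188513-62192613, 32 probes) was at −0.29 ± 0.16, not called.

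The size of the region itself moved with the array medians. In the 332 regions with 11 probes, just outside the rule, the median edge minus centre ran from −0.06 to 0.19 over the 8 arrays, and in the 212 with exactly 12 probes from −0.10 to 0.30. In the 93 regions with 20 or more probes it was positive on all 8, from 0.03 in the knockdown to 0.44 in ES mbd4-/-. In the 4140 tested regions with 6 to 8 probes it was negative in ES wild type, ES mbd4-/-, the knockdown, liver mbd4-/- and spleen mbd4-/- (−0.20 to −0.08) and positive on the 3 aid-/- arrays (0.04 to 0.14). These values are given side by side without a test.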

How the data were processed

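All 8 arrays were read from the scanner files. Per the file headers, the authors' Agilent Feature Extraction software (version 10.9.1.1, and 10.7.3.1 for ES mbd4-/- and the Gadd45a knockdown) gave processed intensity values for both dyes, already background-subtracted and dye-normalized, and a log10 ratio per spot. The deposited value table holds processed scores of unstated scale, used as an alternative after rescaling. Of 88737 probes, 81105 were used: 132 were flagged as outliers, 7174 more were not well above background in the input on every array, and 326 had no position. Bound over input was taken as a log2 ratio and centred on each array's median, with no loess or quantile step. Between 70.6% (ES aid-/-) and 96.2% (liver mbd4-/-) of probes were well above background in the bound channel, and 1 array per group limits precision. Edge minus centre was tested with limma 3.58.1 (R 4.3.3, Benjamini-Hochberg), checked on simulated data. The aid-/- against mbd4-/- fit rests on 2 residual degrees of freedom. Normexp used median signals on all arrays, since some files hold no mean signals. Values are relative antibody binding and not a methylation percentage.

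Genes are named as in the array design. In 78 long regions the probes carried more than 1 gene name, and the most frequent was used. Among them were Spata5 (also Nudt6), Lrrc56 (also Hras1), Tmem63b (also Mrpl14), Fbxl8 (also Hsf4) and Exoc3l (also 4931428F04Rik). Of 793 named regions, 693 matched a current symbol and 95 an older synonym on the same chromosome in the RefSeq table (GRCm38.p6, names only), and coordinates are mm9. Exon and intron positions were not used here. Named regions were the 8 highest and 8 lowest by mean edge minus centre with one sign on 8 arrays and a bound probe above background in both parts on at least 6, the 5 and 3 largest in either direction of the tissue and genotype comparisons, the 6 with most probes and 2 per gene list, so others are named only as picked after their values were seen or from a list. Members and lists were chosen with earlier results of these data known. A bound ("at least N-fold") compares the mean of the brighter part with the higher of the dim probes' own signal and the lowest signal among probes well above background.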

Additional observations from a re-analysis of the deposited data

Results flagged for a closer look

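Edge minus centre of each named region and the array medians of edge, centre and their difference were examined for single arrays standing apart, within the 4 ES arrays and within the 4 liver and spleen arrays. Of 116 such groups 8 had one array apart by Dixon's criterion, and chance gives about 1 in 20.

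The Gadd45a knockdown array stood apart in 4 regions. It read −3.15 at Pkm (Pkm2 in the design), where the other ES arrays lay between −1.19 and −0.81, and 2.07 at Fbxl8, against 1.18 to 1.30. At Gnas (21 probes) it read −1.40, against 0.34 to 0.49, and at Onecut1, a liver and neuronal factor, −0.71, against 0.30 to 0.40. ES aid-/- read 1.46 at Rab6a, where the other ES arrays lay between −1.97 and −1.41. ES wild type read 1.22 at Exoc3l, against 1.76 to 1.87.

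In the tissues, liver aid-/- read −0.26 at Fut8, against −1.43 to −1.23, and spleen mbd4-/- read 1.17 at Pcdh7, against 0.68 to 0.73.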

How the results depend on the processing

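Alternatives covered the probe filter, background, GC and CpG number, scaling, the definition of edge, centre and region, blocks and single arrays. The count of 153 regions with lower edges on the mean of 8 arrays became 100 with normexp background, and all other counts of that comparison stayed within 1.5 times of 243 and 153. Without 1 array they ranged from 210 to 266 and from 119 to 152. The single calls at Zbtb7c and Mn1 changed sign, to 0.20 with normexp background and to −0.18 in the deposited values. In the ES against tissue comparison the count of 0 higher became 1 with slide as a random block or 3 outer probes, 101 with the replicate block by genotype on 6 arrays and 25 on those arrays without it (chosen after seeing the data), and the count of 0 lower became 1 on the newer software arrays alone, 46 with the block and 12 without it. No other pairing was possible, since no group has a second array. Without 1 array these counts were 0 and 0 to 1, the 1 being without the knockdown. The 2 regions higher in aid-/- than in mbd4-/- became 11 with a trend and robust fit, 68 with no probe filter, 71 with the bound signal floored, 1 with the outermost probe or a 300 bp gap, and 0 without the tissue block, with normexp background, GC, CpG number (chosen after seeing the data) or plateau correction, deposited values, 3 outer probes, the centre by distance or medians of probes. The 0 lower became 2, 25 and 27 in the first 3 of these. Without 1 array the ranges were 0 to 40 and 0 to 15, so this comparison settles no count. The mean array medians ranged from 0.05 to 0.20 (ES) and from 0.07 to 0.12 (tissues) without 1 array. Against ES wild type, normexp background gave 2 higher and 1 lower for aid-/-, 4 and 1 for mbd4-/- and 29 and 39 for the knockdown. The 160 higher in aid-/- became 88 with GC correction, 104 at one plateau, 72 in the deposited values, 260 with the outermost probe and 103 with a 300 bp gap, and its 42 lower became 71 floored, 87 deposited and 65 with medians of probes. For mbd4-/- one plateau gave 57 and 25 and medians of probes 83 lower, and for the knockdown medians of probes gave 120 higher. Values of single regions kept their side of the threshold in 575 of 642 settings. The cause was not tested for any of these. Bound signals near background make values well below the array median the least certain.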
